A study of Mus musculus with 2 samples.

Results

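The genes described here are the subunits of the transcription factor NF-kB and the proteins that hold it in check, in mouse marrow cells cultured beneath ID8 tumour cells. Members were the probe sets whose only gene symbol in the array's annotation was one of 10 listed genes. Of the 10 genes, 9 had such a probe set, and these 9 genes, with 19 probe sets, stand among 18193 named genes on the array. Nfkb1 is not analysed here. The measured members are 4 subunits (Rela, Relb, Rel and Nfkb2) and 5 inhibitors (Nfkbia, Nfkbib, Nfkbie, Nfkbiz and Tnfaip3).

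The study hybridised RNA of 2 samples to 1 Affymetrix array each. Both came from the femoral marrow of C57BL/6 mice, whose cells were grown in RPMI-1640 with 5% FBS, and the labels give both the phenotype CD11b+Gr1+, the surface antigens of myeloid-derived suppressor cells (MDSC), which restrain T cells. In the ID8-induced MDSC sample, 2000000 marrow cells lay below 50000 ID8 mouse ovarian tumour cells in a 24-well transwell plate for 4 days. The porous membrane between such layers lets soluble products pass and keeps the cells apart. The labels write the tumour line both as ID8 and as 1D8, and the title names its supernatant as the inducer. The control was labelled as bone marrow cells, and its time in culture was not stated.

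The control signals were not tied to their probe sets and are read for no gene here. Down the 45037 rows, the control signal rose in 6.9% of steps and otherwise fell or stayed level, whereas the ID8-induced signal rose in 49.9%. Each value below is therefore a level on 1 array, with no replicate error, no fold change and no test. It does not show that tumour cells raised or lowered a gene. In a bulk sample, fewer cells that use a gene and less of its RNA per cell cannot be told apart.

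NF-kB is a family of dimers built from proteins that share a Rel homology domain. In resting cells IkB proteins, which carry ankyrin repeats, mask the dimers in the cytoplasm. Signals from receptors for tumour necrosis factor, interleukin 1 or microbial products activate IkB kinase, IkB is degraded, and the dimers enter the nucleus. Several inhibitors are themselves NF-kB target genes, which closes a negative feedback loop. In neutrophils and monocytes the pathway drives cytokine and survival genes.

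The identity of the cells was checked against markers. Itgam, which encodes CD11b, read 2375, while Ly6g and Ly6c1, which encode antigens bound by Gr1 antibody, are not analysed here. All 9 measured neutrophil markers reached the 90th percentile of all signals on the array, reading from 2569 to 24857. Of 7 monocyte and macrophage markers, reading from 35.04 to 5515, 5 passed the signal floor set out below and 4 reached the 90th percentile. Dendritic, B, T and NK, and epithelial markers, the last of which ID8 cells could bring, did so in 0 of 7, 0 of 6, 0 of 6 and 0 of 7 cases. Their signals ran from 32.24 to 233.98, 78.12 to 261.18, 62.28 to 276.97 and 21.57 to 158.91. In the same order, 6 of 7, 6 of 6, 4 of 6 and 4 of 7 passed the signal floor set out below. Of all named genes, 14.8% reached the 90th percentile and 71.3% passed the floor. These counts do not show that such cells were absent. Erythroid markers reached the 90th percentile in 1 of 5 cases, Alas2 at 1693, and passed the floor in 2 of 5. Epor passed it with a signal of 160.82. The signals of Klf1 (55.94), Hba-a1 (51.32) and Car1 (31.2) did not reach it. The part of these cells in the NF-kB signals was not tested.

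Transcripts of the NF-kB subunits and inhibitors were bright in ID8-induced MDSC. All 9 measured members lay above a signal floor of 68.77, which is the 40th percentile of the array and stands in for detection calls. Of all named genes, 71.3% passed it, so this count says little about the members. At or above the 90th percentile (619.81) lay 7 of the 9, against 14.8% of all named genes, and at or above the 99th (4651) lay 3, against 1.39%. The members were chosen with earlier results of these data known, so this contrast is not independent of the data. A percentile here gives how many in 100 probe sets were dimmer. It does not rank transcripts by abundance, since probe sets hybridise unequally.

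Each gene was counted by its brightest probe set, which favours genes with many. Among genes with several probe sets 21.0% reached the 90th percentile, and 5 of the 6 such members did. Among genes with 1 probe set 8.70% reached it, and 2 of the 3 such members did. Counted by probe set, 19 of 19 member probe sets passed the floor, 14 reached the 90th percentile and 7 the 99th, against 63.5%, 11.3% and 0.947% of all probe sets with 1 symbol. The 7 brightest belong to Nfkbia, Nfkbiz and Tnfaip3. Rel and Nfkbie lay just short of the 90th percentile, at 88.63 and 89.19.

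**Figure D1:**
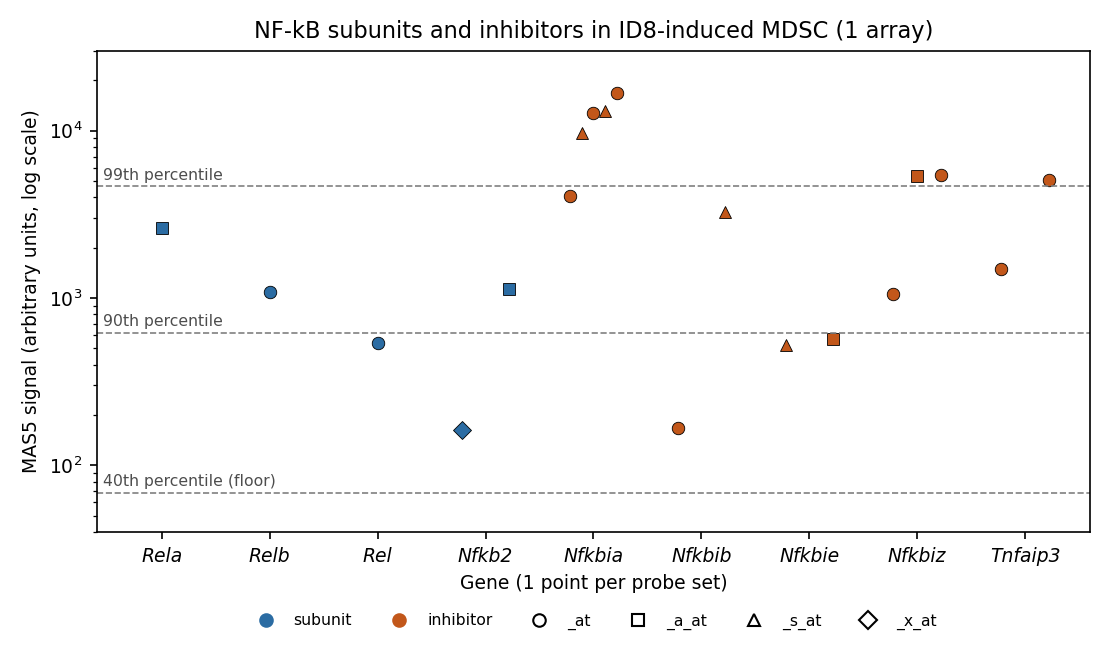
MAS5 signal (arbitrary units, log axis) of each of the 19 member probe sets on the ID8-induced MDSC array. Points are single probe sets, coloured by role and shaped by the suffix of the probe set ID, and dashed lines mark the 40th, 90th and 99th percentile of the array. All points lie above the floor of 68.77, and the probe sets above the 99th percentile belong to Nfkbia, Nfkbiz and Tnfaip3.

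Among the subunits, Rela encodes RelA, the main activating partner of the classical dimer. Its probe set 1419536_a_at read 2625, at percentile 97.73. Relb encodes the partner of the alternative pathway, which is triggered by lymphotoxin, CD40 or BAFF receptors. Its probe set 1417856_at read 1089, at percentile 94.12. Rel encodes c-Rel, an activating subunit best known from lymphocytes and macrophages. Its probe set 1420710_at read 538.72, at percentile 88.63. Each of these genes rests on 1 probe set, so no second reading of it was at hand.

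Nfkb2 encodes a precursor that acts as an ankyrin-repeat inhibitor until processing turns it into the DNA-binding partner of RelB. Its probe set 1425902_a_at read 1131, at percentile 94.34, and its probe set 1429128_x_at read 162.25, at percentile 68.59. The letter x marks a set with probes that also resemble other sequences, and the letter a marks a set that covers several transcripts of 1 gene. Both Nfkb2 readings passed the floor, but only the first reached the 90th percentile, so its level depends on which probe set is read. The median percentile of the 4 measured subunits was 94.2, beside 61.4 over all named genes.

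Among the inhibitors, Nfkbia encodes IkB-alpha, the rapidly degraded and resynthesised inhibitor of the classical dimer. Its 5 probe sets read 16872 (1420088_at), 13032 (1438157_s_at), 12738 (1448306_at), 9730 (1449731_s_at) and 4043 (1420089_at). The brightest lay at percentile 99.97 and the dimmest at 98.69, so every probe set of this gene was near the top of the array. The letter s marks sets whose probes match several transcripts, which may come from more than 1 gene, and the brightest Nfkbia probe set carries no such letter.

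The promoter of Nfkbia is shown because, among members whose window held the stricter kB motif given below, it had the strongest signal. The motif was thus part of the choice. Nfkbia also had the strongest signal of all measured members, and NF-kB is known to act on this gene. The 300 bases, from 250 before to 50 after the start site (RefSeq, GRCm38.p6, chr12:55492598-55492897, minus strand), are given on the strand of the gene. Capitals mark the matches, on either strand, to a loose kB motif (GGG, any 5 bases, then CC). The second of them, from base -29 to base -20 counted from the start site, also matches, on the opposite strand, a stricter one (GGGA, any base, then TTTCC). Every stricter match is also a looser one.
Nfkbia: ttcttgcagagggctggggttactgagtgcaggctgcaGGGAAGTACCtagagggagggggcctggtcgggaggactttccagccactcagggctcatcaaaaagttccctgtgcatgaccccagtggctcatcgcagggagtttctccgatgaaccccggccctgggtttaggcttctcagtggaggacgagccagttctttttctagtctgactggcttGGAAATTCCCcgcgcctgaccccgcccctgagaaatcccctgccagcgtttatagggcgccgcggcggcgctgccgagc

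Nfkbib encodes IkB-beta, a classical inhibitor that is replaced more slowly after degradation. Its probe set 1421266_s_at read 3267, at percentile 98.25, and its probe set 1446718_at read 168.11, at percentile 69.51. The readings lie far apart, and the bright one comes from a set of the s kind. Nfkbie encodes IkB-epsilon, an inhibitor that acts mainly on dimers of RelA and c-Rel. Its probe set 1431843_a_at read 569.89 and its probe set 1458299_s_at read 520.96, at percentiles 89.19 and 88.33, close to each other and both below the 90th.

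Nfkbiz encodes IkB-zeta, an atypical nuclear member of the family that also helps NF-kB to switch on secondary response genes. Its probe sets 1417483_at and 1448728_a_at read 5444 and 5345, at percentile 99.21 for the brighter, and 1457404_at read 1049, at percentile 93.9. All 3 readings lay above the 90th percentile. Tnfaip3 encodes A20, a ubiquitin-editing enzyme that switches off signalling upstream of IkB kinase. Its probe set 1433699_at read 5056, at percentile 99.11, and its probe set 1450829_at read 1493, at percentile 95.79. The median percentile of the 5 inhibitors was 99.1.

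How far probe sets of a gene disagree is the only check on these signals within 1 array. The brightest exceeded the dimmest by a factor of 1.09 for Nfkbie, 3.39 for Tnfaip3, 6.97 for Nfkb2 and 19.43 for Nfkbib. The median over 4695 genes with as many probe sets, 2 each, was 2.12. A smaller ratio was found for 97.5% of those genes beside Nfkbib, for 88.8% beside Nfkb2, for 71.7% beside Tnfaip3 and for 7.0% beside Nfkbie. Over the 768 bright genes with 2 probe sets, meaning those whose brightest reached the 90th percentile, the median ratio was 3.03. Picking genes by the brightest signal, which is also the upper part of the ratio, by itself raises the ratio. Of these genes 89.6% had a smaller ratio than Nfkbib, 69.8% than Nfkb2 and 53.3% than Tnfaip3. Set against these 768 genes, Nfkb2 and Tnfaip3 thus lay in the middle 50% (1.61 to 8.7), while Nfkbib lay above it. The set holds every such gene from the 90th percentile up and is not matched to the brightness of each member.

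For Nfkbiz, with 3 probe sets, the ratio was 5.19, beside a median of 3.48 over all 2366 such genes and of 7.11 over the 521 bright ones. For Nfkbia, with 5, it was 4.17, beside a median of 7.45 over all 463 such genes and of 13.27 over the 158 bright ones, of which 7.0% had a smaller ratio. The probe sets of Nfkbia were thus closer to each other than those of most bright genes with as many. With the dimmest probe set in place of the brightest, 5 of 9 members still reached the 90th percentile (Rela, Relb, Nfkbia, Nfkbiz and Tnfaip3), against 6.46% of all named genes. At the 99th percentile it was 0 of 9, against 0.715%. Nfkb2 and Nfkbib were the 2 members with probe sets on both sides of the 90th percentile.

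**Figure D2:**
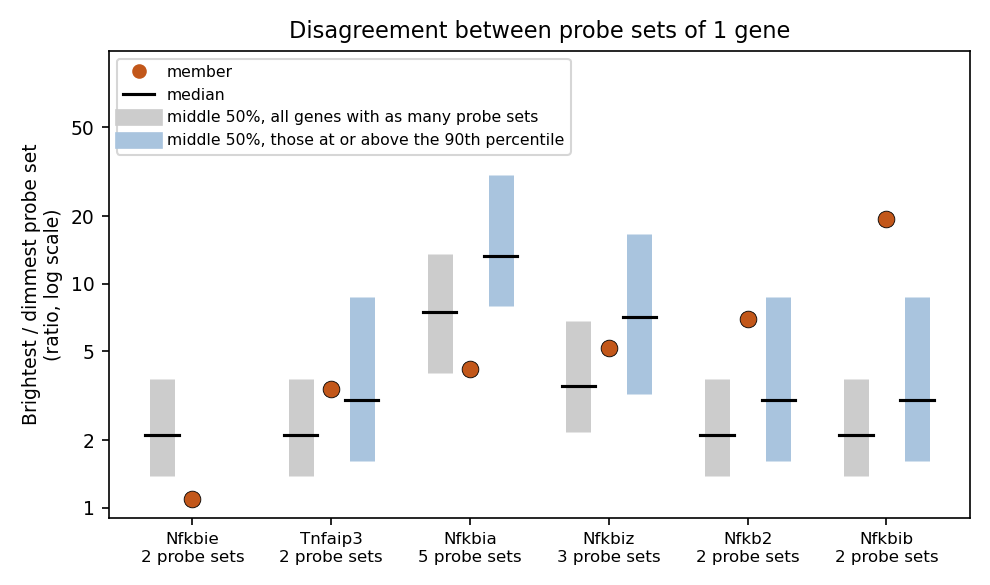
Ratio of the brightest to the dimmest probe set (log axis) of the 6 members with several probe sets. Orange points are members, black bars medians, grey boxes the middle 50% of all genes with as many probe sets and blue boxes that of the genes among them at or above the 90th percentile. Nfkbib at 19.43 lies above both of its boxes, Nfkb2 at 6.97 above the grey and inside the blue, Nfkbia at 4.17 inside the grey and below the blue, and Nfkbie at 1.09 below its grey box.

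Promoter windows of RefSeq were found for 7 of the 10 listed genes, with 10 windows in all. Those of Nfkb1, Relb and Nfkbiz were not matched. The looser motif was present on either strand in 6 of the 7, all but Nfkbib, and in 53.5% of all 27025 genes (50.8% of 32851 windows). The stricter motif was present in 2 of the 7, Nfkbia and Nfkb2, and in 0.411% of all windows, or 0.466% of all genes. In Nfkb2 the same match lies in windows of 2 start sites, 10 bases after one and 225 before the other. A match is a description of letters, not a site that was shown to bind.

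**Figure D3:**
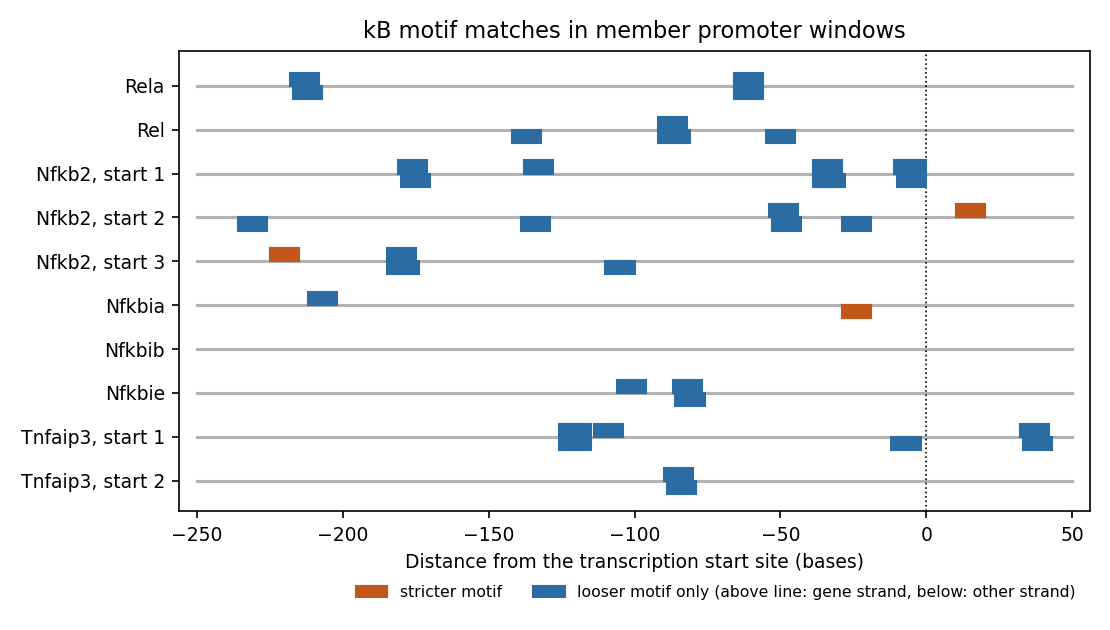
Matches to kB motifs along the 10 promoter windows of 7 members, by distance from the transcription start site in bases. Blocks above a line are on the strand of the gene and blocks below it on the other strand, orange for the stricter motif and blue for the looser motif alone. The stricter motif appears in Nfkbia, from -29 to -20, and in windows of 2 start sites of Nfkb2, while Nfkbib has no match.

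The stricter matches among members and other genes of the pathway are shown with 10 bases on each side, so that the letters behind the counts can be read. The sites were chosen by the motif, so their likeness within the capitals follows from the choice. All are from GRCm38.p6 and are written on the strand of the gene, with the motif in capitals. Where the capitals begin with GGAA the motif lies on the opposite strand. Of the 23 listed target genes with a window, 4 held the stricter motif (Csf1, Cxcl1, Cxcl2 and Il6), against 0.466% of all genes. Listed ligands, kinases and other inhibitors held it in 1 of 10, 1 of 8 and 1 of 14. For receptors, adaptors with ubiquitin ligases, the IkB ligase step and coregulators it was 0 of 10, 0 of 19, 0 of 5 and 0 of 5. The targets were listed because NF-kB is known to act on them, so their count is not independent of the motif.
Nfkbia, chr12:55492657-55492686, minus strand: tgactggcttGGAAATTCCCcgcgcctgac
Nfkb2, chr19:46305695-46305724, plus strand: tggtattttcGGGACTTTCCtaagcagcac
Cxcl2, chr5:90903792-90903821, plus strand: cctgagctcaGGGAATTTCCctggtccccg
Cxcl1, chr5:90891164-90891193, plus strand: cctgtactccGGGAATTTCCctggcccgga
Il6, chr5:30013060-30013089, plus strand: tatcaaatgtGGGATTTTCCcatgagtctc
Csf1, chr3:107760604-107760633, minus strand: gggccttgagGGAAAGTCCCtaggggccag
Ltb, chr17:35194410-35194439, plus strand: aagggtgttcGGAAAGTCCCcgggcagggg
Cyld, chr8:88696863-88696892, plus strand: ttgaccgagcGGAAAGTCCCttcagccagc
Map3k7, chr4:31964005-31964034, plus strand: ccccgggtcaGGAAATTCCCcgctcgggtc
On the brightest probe set, all 9 of these genes passed the floor described above, as did 71.3% of all named genes. The dimmest probe sets of Cyld and Map3k7 lay below it at 67.77 and 54.47. Nfkbia and Cxcl2, a neutrophil chemokine, read 16872 and 13279. Nfkb2, Ltb (lymphotoxin beta), Cxcl1, Cyld (a deubiquitinase that restrains the pathway), Csf1, Il6 and Map3k7 (the kinase TAK1) read 1131, 1470, 785.07, 767.43, 597.38, 569.97 and 414.44.

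The rest of the pathway was read from 8 further lists with 112 measured genes. Of these genes 105 passed the floor, 57 reached the 90th percentile and 19 the 99th, against 71.3%, 14.8% and 1.39% of all named genes. On the dimmest probe set of each gene 37 reached the 90th and 10 the 99th, against 6.46% and 0.715% of all named genes. As most named genes passed the floor, the counts above it in the lists that follow say little by themselves. The lists were chosen with earlier results of these data known, so contrasts with all named genes, here and below, are not independent of the data. The ligands that start the pathway were split. Il1b, Tnf, Il1a and Ltb read 6332, 4190, 1664 and 1470, and these 4 of 11 ligands were the ones at or above the 90th percentile. Tnfsf11 (RANKL) and Cd40lg, both made by activated T cells, lay below the floor at 36.56 and 30.2. As a group the ligands had a median percentile of 56.8, under the 61.4 of all named genes.

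Of 13 receptors, 12 passed the floor. Cd14, Tnfrsf1b, Tlr2 and Tnfrsf1a read 10143, 5345, 4187 and 1655, while Tnfrsf13c, the BAFF receptor of B cells, lay below the floor at 59.55. Cd40 and Ltbr, which feed the alternative pathway in which RelB and Nfkb2 act, read 140.3 and 542.09, and both were picked out after their values were seen. All 18 measured adaptors and ubiquitin ligases passed the floor, led by Irak3 (a brake on interleukin 1 and Toll-like receptor signals) at 6170, Birc3 at 6161, Irak2 at 3855 and Bcl10 at 2758.

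All 10 measured kinases passed the floor. Ikbke, Tbk1, Map3k8 and Tab2 read 4776, 3191, 2529 and 2114. For the IkB kinase complex itself, Ikbkb (its catalytic beta subunit) read 430.95 and Ikbkg (its scaffold NEMO) 391.51, and Map3k14 (NIK, the kinase of the alternative pathway) read 285.87, all below the 90th percentile. Chuk is not analysed here. These 3 genes were chosen for their role after their values were seen. Genes listed for the ubiquitin ligase step that marks IkB for degradation passed in 6 of 6 cases. Ube2d3, a conjugating enzyme and not a part of the ligase, read 8752. Fbxw11, Skp1 and Cul1 read 3533, 921.14 and 673.65. The dimmest probe sets of Ube2d3, Fbxw11 and Skp1 read 476.15, 299.83 and 189.13.

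Other inhibitors of the pathway passed the floor in 15 of 16 cases. The 90th percentile was reached by 9 of the 16 on the brightest probe set and by 4 on the dimmest. Of all named genes, 14.8% and 6.46% did so. Tnip1, which works with A20, read 3303, Tax1bp1, another A20 partner, 2604, Nfkbid (the atypical IkB-NS) 2058 and Rnf11 1958. Tax1bp1 and Rnf11 read 244.43 and 163.23 on their dimmest probe sets. Nkrf, a repressor of NF-kB promoters, lay below the floor at 40.45. On the brightest probe set these 16 genes had a median percentile of 92.1, beside 99.1 for the 5 inhibitors among the members. Each of those 5 has several probe sets, while some of the 16 have 1, which favours the 5. On their dimmest probe sets the 5 lay at percentiles from 69.51 to 98.69.

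Known target genes lay above the floor in 27 of 30 cases. On the brightest probe set 20 reached the 90th percentile and 11 the 99th, and on the dimmest 12 and 7. The shares of all named genes were 14.8% and 1.39% on the brightest and 6.46% and 0.715% on the dimmest. Ccl3, Cxcl2, Gadd45b and Sod2 read 16508, 13279, 10751 and 10671. Gadd45b and Sod2 read 189.05 and 293.49 on their dimmest probe sets. Csf2, Sele (an endothelial adhesion molecule) and Plau lay below the floor at 53.53, 44.61 and 38.81. Coregulators passed in 8 of 8 cases, with Rps3 at 6978, Cdk9 at 1995, Hdac1 at 803.39 and Hdac3 at 591.36, and with 64.49 for Rps3 and 76.58 for Cdk9 on their dimmest probe sets. Many of these genes have other regulators, and their signals do not measure NF-kB activity.

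**Figure D4:**
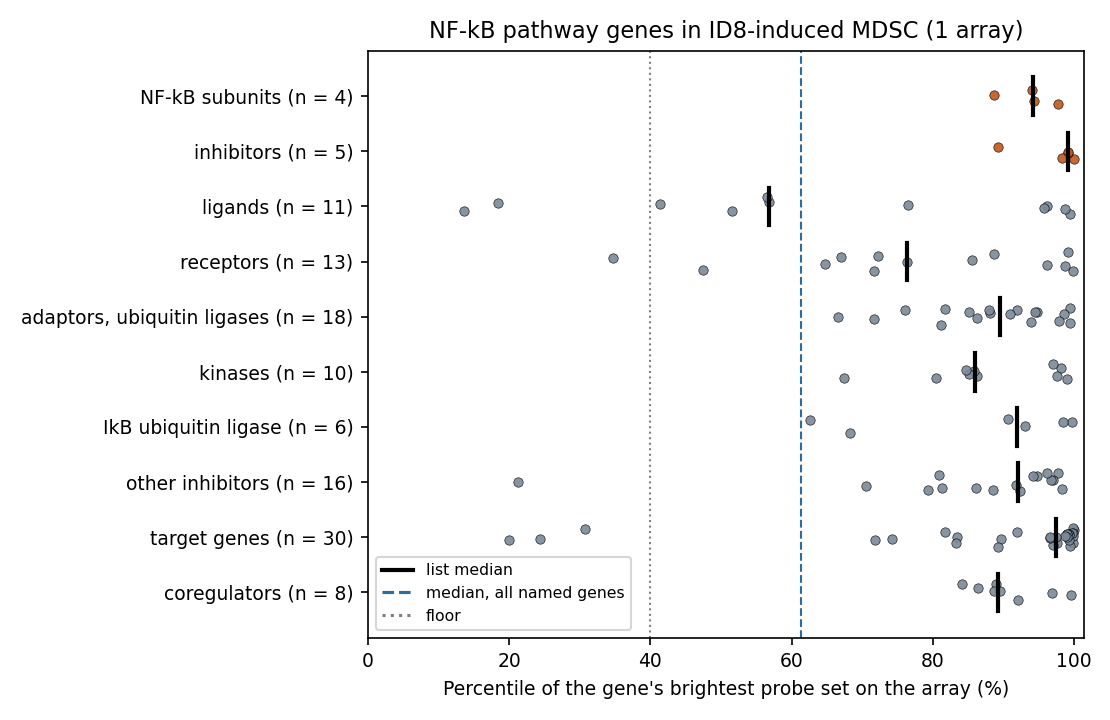
Percentile on the ID8-induced MDSC array of the brightest probe set of each measured gene, by role in the NF-kB pathway. Points are genes (orange for members), black bars list medians, the dashed line the median of all named genes (61.4) and the dotted line the floor. Subunits and inhibitors among the members lie above the 88th percentile, while ligands lie on both sides of the floor, from Cd40lg at 13.64 to Il1b at 99.44.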

How the data were processed

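From 2 samples, 1 array each, 6 ug of RNA was made into biotinylated cRNA, per the labels' protocols. The submitters' processing notes name MAS5 (version, scaling target and detection calls: not given in the sources used here). Deposited by the authors was linear signal intensity for each probe set, used unchanged. The number of arrays limits the precision. Gene symbols came from GEO's platform table, and the 932 probe sets with several symbols and the 9160 without one were left out, which leaves 34945. The 9 measured members all matched RefSeq gene IDs of GRCm38.p6. No test was possible, and lists are described by counts and medians. Named were all members and, in each of 8 lists, the 4 brightest genes and those below the floor. Of the measured cell type markers, Itgam and the erythroid ones were named. Genes with a stricter kB match, and Cd40, Ltbr, Ikbkb, Ikbkg and Map3k14, were added after their values were seen. Members and lists were chosen with earlier results of these data known. Scripts were tested on simulated data. Also tried were a floor at percentile 20 or 60, a gene's mean log2 signal (computed from the deposited values, with signals under 0.01 set to 0.01), the dimmest probe set and probe sets without a suffix letter. Python 3.11.15, numpy 2.4.6 and pandas 2.3.3 were used.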

Additional observations from a re-analysis of the deposited data

Results flagged for a closer look

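The bone marrow control column held a full range of signals, with a median of 92.31 beside 89.52 in the ID8-induced column, and it was picked out because no description of a gene uses it. Its values descend along the probe set list, with 3103 rises in 45036 steps against 22454, and the cause was not tested.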

How the results depend on the processing

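The count of members above the floor was 9 of 9 with the floor at percentile 20 or 60, with the averaged log2 signal and with the dimmest probe set, and 6 of the 6 that remained measured with suffix-free probe sets. All named genes above the floor ranged from 9037 (dimmest probe set) to 15924 (20th percentile) of 18193, and pathway genes from 91 to 110 of 112. Members at or above the 90th percentile numbered 6 with the mean, 5 with the dimmest and 4 of 6 with suffix-free probe sets, and at the 99th 1, 0 and 3. Chosen after seeing the data, the same choices were applied to the pathway genes: 57 at the 90th percentile became 48 with the mean and 37 with the dimmest, and 19 at the 99th became 10 with either. Ligands above the floor fell from 9 to 5 at the 60th percentile. Member promoters with a kB match numbered 2 of 7 with the stricter motif against 6 with the looser, which follows from its fixed letters. With the mean over probe sets, 5 of 9 member signals moved by over 1.5 times: Nfkbia to 10196, Nfkbiz to 3125, Tnfaip3 to 2748, Nfkbib to 741.1 and Nfkb2 to 428.34. Nfkbib was 168.11 with suffix-free probe sets. No paired analysis was possible because each group held 1 array.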

Other observations

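Across the genes of the array with a promoter window, signals were set beside kB motif matches as a description, with no test. The 79 genes with the stricter motif had a median percentile of 65.3, and 20.3% of them reached the 90th percentile. The 14373 genes without it had a median of 62.6, and 15.3% reached it. For the looser motif the medians were 66.6 over 9575 genes with a match and 53.8 over 4877 without. Base composition moved with the looser match: the median GC content of the windows was 61.3% with it and 53.0% without, and its part in the difference was not tested. For the stricter motif the GC medians were 56.8% and 58.7%.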
